A study of Homo sapiens with 4 samples.

Results

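The tumour necrosis factor (TNF) superfamily of ligands and the matching superfamily of receptors were followed by RNA-seq in 4 libraries of IMR90, a fibroblast line from human lung. Members were found by symbol: every named locus with a symbol that starts with TNFSF or TNFRSF and a digit, or that is TNF, LTA, LTB, LTBR, CD40, CD40LG, FAS, FASLG, CD70, CD27, NGFR or EDA. This gave 43 genes of the 22679 named genes in the files, on 64 lines and with 45 member symbols. Of the 43, 17 are ligands, 7 are receptors with a death domain, 4 are decoy receptors and 15 are other receptors. The files join 5 members to other symbols in a single locus, and the value of such a locus cannot be read as that of the member alone.

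There was 1 library in each of 4 groups, all of IMR90 at passage 16. The OIS library (oncogene-induced senescence) came from cells with an inducible ER:RasV12 retroviral construct after 8 days in 10 nM tamoxifen. The H3.3cs1 late and H3.3cs1 early libraries came from cells that express a cleaved form of the histone variant H3.3 with a Flag tag, at days 13 and 3 after retroviral infection. The growing library came from cells with the empty pBabe retroviral vector at day 13. OIS therefore differs from growing in construct, tamoxifen and time, and H3.3cs1 early differs from growing in construct and time after infection. These cannot be told apart from the effect of RAS or of the cleaved histone, and an empty-vector control at day 3 is not part of these data as used here. The unit is FPKM (fragments scaled to transcript length in kilobases and to the mapped fragments of the library), compared as differences of log2(FPKM + 1). A gene is said to have risen or fallen where that difference was at least 2-fold, and all folds are on this scale, on which the folds of weakly expressed genes come out too small. With 1 library per group there is no replicate check and no p-value. In such bulk samples, fewer cells with a transcript and less of it per cell cannot be told apart.

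Ligands of the TNF superfamily are mostly membrane proteins that act as trimers on the cell surface or after shedding. Receptors with a death domain can recruit FADD or TRADD and caspase 8, whereas most other receptors bind TRAF adaptors and lead to NF-kappaB and MAP kinase activity. Decoy receptors bind ligand but lack a complete signalling tail or are secreted. Fibroblasts are known to carry the TNF receptor, the lymphotoxin beta receptor and the TWEAK receptor, while many ligands are known chiefly from leukocytes.

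HRAS checked the label of OIS, with 3153 FPKM in OIS, 41.9 in H3.3cs1 late, 49.8 in H3.3cs1 early and 47.4 in growing. Between 11063 and 11271 named genes per library reached 1 FPKM. Of the 12183 genes compared, 9.13% rose and 8.17% fell in OIS, 3.51% rose and 5.47% fell in H3.3cs1 late, and 1.40% rose and 3.96% fell in H3.3cs1 early, each against growing. Depth relative to growing was estimated from the most common ratio between values below 0.03 FPKM, with 139 to 193 loci near that ratio. It was roughly 80.6% in OIS, 77.0% in H3.3cs1 late and 96.1% in H3.3cs1 early. Read counts were not analysed here, so no counting interval is given. All 8 fibroblast markers were present, with COL1A1 at 1012, 5172, 1862 and 4156 FPKM in OIS, H3.3cs1 late, H3.3cs1 early and growing, and in OIS 0 of the 8 rose and 5 fell. In H3.3cs1 early 1 of the 8 rose and 2 fell against growing, and in H3.3cs1 late none passed 2-fold against growing. Of 13 leukocyte markers 2 reached 1 FPKM in some library, CD4 and the joined CD68,MPDU1 locus, and neither passed 2-fold against growing. The leukocyte markers summed to 109, 50.9, 61.3 and 69.2 FPKM in the same order of libraries, nearly all of it from these. PTPRC, the pan-leukocyte gene CD45, was at most at 0.0396 FPKM, and CD3D, MS4A1, CD8A and NKG7 were listed at 0 in all 4 libraries.

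Of the 43 members, 21 reached 1 FPKM in at least 1 library. All 21 did so in OIS, against 17 in H3.3cs1 late, 17 in H3.3cs1 early and 15 in growing. Over all named genes, 11063 did so in OIS, 11120 in H3.3cs1 late, 11271 in H3.3cs1 early and 11192 in growing. TNFSF15, TNFSF18, TNFSF9 and TNFRSF17 passed only through OIS, so the choice of members to compare is tied to that library. The other 22 members stayed at or below 0.505 FPKM in all 4 libraries. Among the receptors, TNFRSF12A, TNFRSF10D, TNFRSF1A, LTBR, TNFRSF10B and TNFRSF11B had the highest levels. FPKM summed over all receptors came to 1193 in OIS, 935 in H3.3cs1 late, 495 in H3.3cs1 early and 855 in growing. FPKM summed over all ligands came to 261 in OIS, 29.0 in H3.3cs1 late, 18.6 in H3.3cs1 early and 34.6 in growing.

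**Figure D1:**
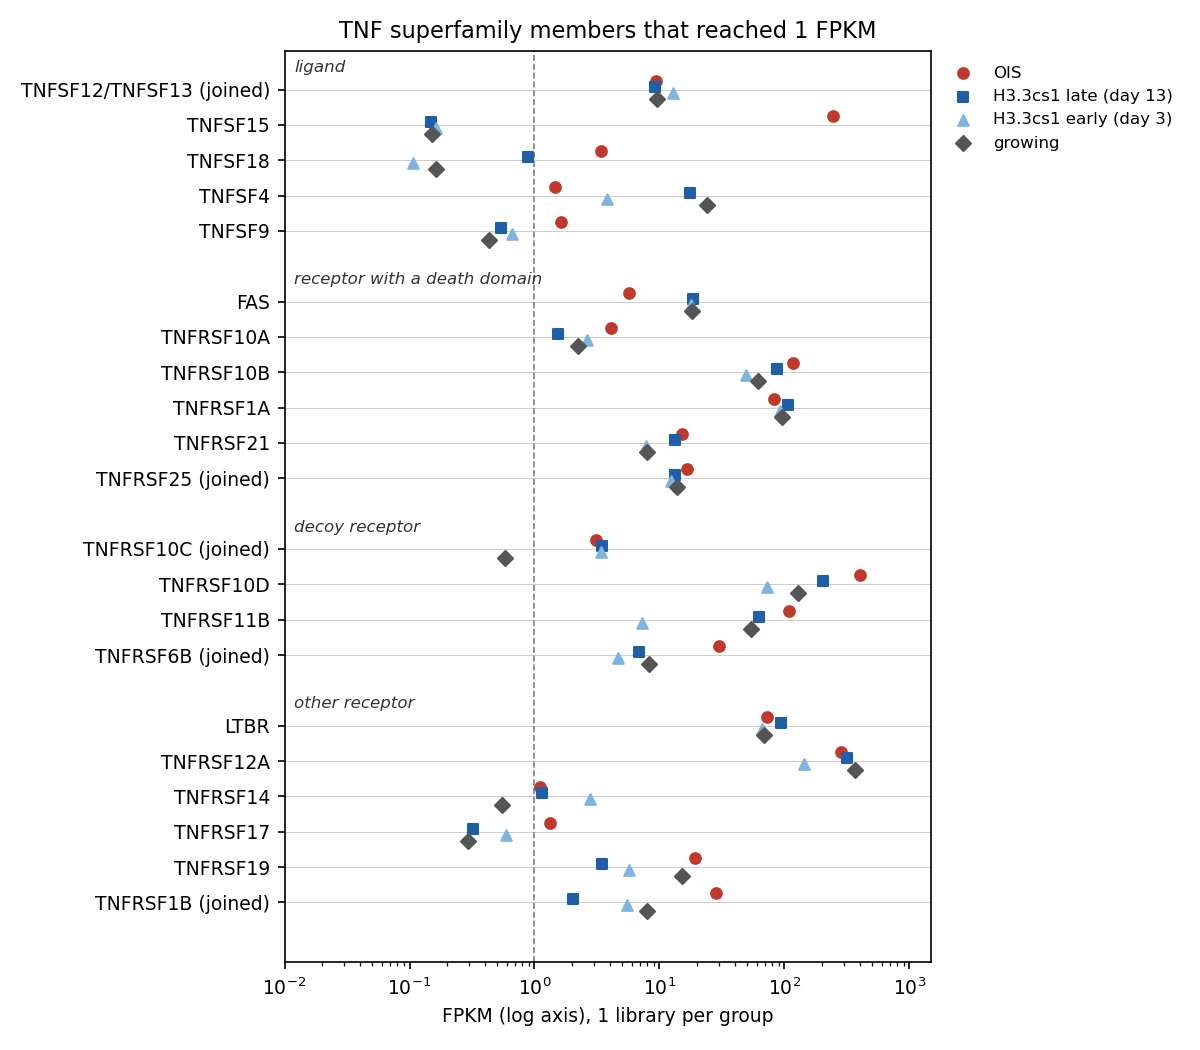
FPKM (log axis) of the 21 members that reached 1 FPKM, by role; each point is 1 library, and the dashed line marks 1 FPKM. TNFSF15 stands at 243 FPKM in OIS and below 0.17 in the other 3 libraries, while TNFSF4 is lowest in OIS and TNFRSF11B is lowest in H3.3cs1 early.

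Among the ligands, TNFSF15 separated OIS from the other libraries. TNFSF15 encodes TL1A, also called vascular endothelial growth inhibitor, a ligand of the receptor DR3 (TNFRSF25) and of the decoy receptor DcR3 (TNFRSF6B). It was listed at 243 FPKM in OIS, 0.148 in H3.3cs1 late, 0.162 in H3.3cs1 early and 0.151 in growing. The rise in OIS against growing was 7.73 on the log2 scale (212-fold), the 9th highest of the 12183 genes compared. TNFSF15 made up 93.3% of the summed ligand FPKM in OIS, against 0.511% in H3.3cs1 late, 0.868% in H3.3cs1 early and 0.436% in growing. The 3 low values lie close together, and the H3.3cs1 libraries differed from growing by -0.0036 (late) and 0.013 (early) log2 units.

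Because TNFSF15 is known from endothelial cells, the endothelial markers are given beside it. Of 8 such markers, 4 reached 1 FPKM in some library and 3 of these rose in OIS (9.13% of all genes). CLDN5 rose to 11.6 FPKM (0.178 in growing), TIE1 to 4.05 (0.631 in growing) and ROBO4 to 4.47 (1.19 in growing). CLDN5 and TIE1 had passed the minimum of 1 FPKM only through OIS. TEK was within 2-fold, at 1.60 FPKM in OIS and 1.05 in growing. The 8 markers summed to 22.1 FPKM in OIS, 1.33 in H3.3cs1 late, 2.41 in H3.3cs1 early and 3.09 in growing. CDH5, the endothelial cadherin, was listed at 0 in all 4 libraries, KDR was listed at 0 in OIS, and PECAM1 was at 0.115 FPKM in OIS and listed at 0 in the other 3. Of 8 epithelial markers 3 reached 1 FPKM in some library (KRT8, KRT18 and KRT19), 2 of which fell in OIS (8.17% of all genes). EPCAM, the epithelial adhesion gene, was at most at 0.495 FPKM.

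TNFSF4 and TNFSF18 are neighbours on chromosome 1 and moved in opposite directions in OIS. TNFSF4 encodes OX40L, a costimulatory ligand of T cells. It was at 1.47 FPKM in OIS, 17.5 in H3.3cs1 late, 3.81 in H3.3cs1 early and 24.0 in growing, so it fell 10.1-fold in OIS and 5.20-fold in H3.3cs1 early, with H3.3cs1 late within 2-fold. From day 3 to day 13 of H3.3cs1 it was 3.85-fold higher at the later time. TNFSF18 encodes GITRL, the ligand of GITR. It was at 3.40 FPKM in OIS, 0.889 in H3.3cs1 late, 0.106 in H3.3cs1 early and 0.163 in growing, a rise of 3.78-fold in OIS against growing. With a pseudocount of 0.1 it also passed 2-fold in H3.3cs1 late, by 1.91 on the log2 scale against growing and by 2.26 against H3.3cs1 early. The ratio of TNFSF4 to TNFSF18 was 0.432 in OIS, 19.7 in H3.3cs1 late, 35.7 in H3.3cs1 early and 147 in growing, with TNFSF18 below 1 FPKM in the last 3.

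The windows around a start of these 3 ligand genes are shown because the genes had the largest differences among the ligands. RefSeq windows (GRCh38.p14, which is not the hg19 build of the files) of 250 bases before to 50 bases after a start were found for 14 of the member symbols compared, in 18 windows. They were searched on both strands for the kappaB consensus bound by NF-kappaB, for the AP-1 motif TGANTCA and for TATAAA, none of which overlapped another in these windows, and matches are in capitals. The AP-1 motif was found at base 131 of the TNFSF15 window, and no match to the 3 motifs was found in those of TNFSF18 and TNFSF4. The windows are chr9:114792481-114792780 (TNFSF15), chr1:173050892-173051191 (TNFSF18) and chr1:173205483-173205782 (TNFSF4), all on the minus strand. The TNFSF15 window lies at a start 13509 bases inside the outer end of the gene, and the TNFSF4 window 245201 bases inside, so other starts of these genes are not covered. FPKM per gene does not say which start was used.
TNFSF15: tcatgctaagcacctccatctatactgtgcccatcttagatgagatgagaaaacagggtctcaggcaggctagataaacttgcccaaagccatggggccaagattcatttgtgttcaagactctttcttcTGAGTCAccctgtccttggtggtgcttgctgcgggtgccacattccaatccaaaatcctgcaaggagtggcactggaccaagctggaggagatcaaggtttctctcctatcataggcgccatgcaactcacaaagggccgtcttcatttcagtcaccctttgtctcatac
TNFSF18: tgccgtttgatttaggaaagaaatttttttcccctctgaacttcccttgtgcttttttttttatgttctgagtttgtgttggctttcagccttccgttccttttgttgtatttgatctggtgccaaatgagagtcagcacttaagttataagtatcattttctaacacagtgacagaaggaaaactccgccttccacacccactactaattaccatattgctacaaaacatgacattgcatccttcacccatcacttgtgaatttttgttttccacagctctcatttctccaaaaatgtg
TNFSF4: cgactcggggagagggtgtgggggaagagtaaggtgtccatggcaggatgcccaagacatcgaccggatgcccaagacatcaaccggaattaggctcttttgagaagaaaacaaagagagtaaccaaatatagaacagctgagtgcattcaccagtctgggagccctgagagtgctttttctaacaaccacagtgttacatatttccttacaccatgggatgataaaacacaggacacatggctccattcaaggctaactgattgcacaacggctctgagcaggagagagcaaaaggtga

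The remaining ligands were low or changed little. The joined locus TNFSF12,TNFSF12-TNFSF13,TNFSF13, which holds TWEAK and APRIL, was at 9.32 FPKM in OIS, 9.28 in H3.3cs1 late, 12.9 in H3.3cs1 early and 9.53 in growing, with no difference of 2-fold. TNFSF9 (4-1BBL) was at 1.64 FPKM in OIS, 0.542 in H3.3cs1 late, 0.660 in H3.3cs1 early and 0.436 in growing, also within 2-fold (in OIS a rise of 1.70 on the log2 scale with a pseudocount of 0.1). TNF itself was listed at 0.0451 FPKM in OIS and at 0 in the other 3 libraries. FASLG was at 0.402 FPKM in OIS and 0.0156 in growing, and TNFSF8 (CD30L) at 0.357 in OIS, 0.00859 in H3.3cs1 early and 0 elsewhere. TNFSF10, which encodes TRAIL, lay between 0.0396 and 0.197 FPKM and TNFSF13B (BAFF) between 0.290 and 0.505. EDA and CD70 stayed at or below 0.204 FPKM, and TNFSF14 (LIGHT) and LTB were each above 0 in a single library, at 0.0344 in OIS and 0.0863 in H3.3cs1 late. LTA, CD40LG and TNFSF11 (RANKL) were listed at 0 in all 4 libraries, which can be a failed estimate and is not read as absence. TNF, LTA and LTB each appear on 7 or 8 lines of the files, so fragments of near-identical copies of these genes could have been handled differently from those of other genes.

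Of the 6 receptors with a death domain compared, FAS alone passed 2-fold in OIS. It fell, as did 8.17% of all genes, while 9.13% rose. None of the 6 passed 2-fold against growing in either H3.3cs1 library. Of all genes, 3.51% rose and 5.47% fell in H3.3cs1 late, and 1.40% rose and 3.96% fell in H3.3cs1 early. FAS, the receptor of Fas ligand, was at 5.67 FPKM in OIS, 18.4 in H3.3cs1 late, 17.8 in H3.3cs1 early and 18.3 in growing. The fall in OIS was 2.90-fold, and the values of the other 3 libraries lay close together. TNFRSF1A, the main TNF receptor of most cells, was at 83.2, 107, 92.7 and 95.5 FPKM in OIS, H3.3cs1 late, H3.3cs1 early and growing, a level that varied little. TNFRSF10B (DR5), a TRAIL receptor that signals, was at 117 FPKM in OIS, 86.8 in H3.3cs1 late, 49.3 in H3.3cs1 early and 61.5 in growing, 1.88-fold higher in OIS than in growing and so just inside the 2-fold limit. TNFRSF10A (DR4), the other such receptor, was far lower, at 4.13, 1.54, 2.63 and 2.21 FPKM.

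TNFRSF21 (DR6) was at 15.2 FPKM in OIS, 13.4 in H3.3cs1 late, 7.87 in H3.3cs1 early and 7.97 in growing, with OIS 1.80-fold and H3.3cs1 late 1.60-fold above growing. The joined locus PLEKHG5,TNFRSF25, which holds DR3, was at 16.7, 13.3, 12.3 and 13.8 FPKM in that order. NGFR, the low-affinity neurotrophin receptor, stayed at or below 0.166 FPKM. The window of FAS at chr10:88991181-88991480 (plus strand) holds a match to the kappaB consensus and lies 27381 bases inside the outer end of the gene, and another FAS window holds the AP-1 motif at base 9. FAS is shown because it was the member of this group that fell in OIS, and the window printed is the one with the kappaB match. A further FAS window, at chr10:88990664-88990963, held no match to the motifs searched. None of the FAS windows lies at the outer end of the gene, so other starts are not covered. Which FAS start was used cannot be read from FPKM per gene.
FAS: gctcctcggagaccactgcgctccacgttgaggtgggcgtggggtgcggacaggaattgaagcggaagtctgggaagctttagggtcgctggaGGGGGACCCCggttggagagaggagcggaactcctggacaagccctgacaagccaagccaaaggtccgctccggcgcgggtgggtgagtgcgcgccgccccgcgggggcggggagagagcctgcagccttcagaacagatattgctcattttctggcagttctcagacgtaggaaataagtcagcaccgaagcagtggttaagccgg

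Among the decoy receptors, TNFRSF10D and the joined loci that hold TNFRSF10C and TNFRSF6B rose in OIS, where 9.13% of all genes rose. The rises of the joined loci cannot be read as those of the decoys alone. The leading decoy was TNFRSF10D (DcR2), which binds TRAIL and has a truncated death domain. It was at 400.1 FPKM in OIS, 204 in H3.3cs1 late, 72.3 in H3.3cs1 early and 129 in growing, a 3.09-fold rise in OIS against growing. At day 13 of H3.3cs1 it was 2.80-fold above day 3. TNFRSF10D made up 33.6% of the summed receptor FPKM in OIS, 21.8% in H3.3cs1 late, 14.6% in H3.3cs1 early and 15.1% in growing.

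The joined locus LOC254896,TNFRSF10C, which holds the lipid-anchored TRAIL decoy DcR1, was at 3.11 FPKM in OIS, 3.48 in H3.3cs1 late, 3.41 in H3.3cs1 early and 0.585 in growing. It rose in all 3 against the shared growing library, by 2.59-fold, 2.83-fold and 2.78-fold. FPKM summed over this locus and TNFRSF10D was 3.34 times that of TNFRSF10A and TNFRSF10B together in OIS, 2.35 times in H3.3cs1 late, 1.46 times in H3.3cs1 early and 2.03 times in growing. The summed FPKM of these decoys exceeded that of the signalling receptors in every library, with the highest ratio in OIS and the lowest in H3.3cs1 early.

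TNFRSF11B encodes osteoprotegerin, a secreted decoy of RANKL that also binds TRAIL. It was at 108 FPKM in OIS, 63.0 in H3.3cs1 late, 7.28 in H3.3cs1 early and 54.3 in growing. H3.3cs1 early stood apart from the other 3, 6.68-fold below growing, and H3.3cs1 late was 7.73-fold above it. OIS was 1.98-fold above growing, short of the limit. The joined locus RTEL1,RTEL1-TNFRSF6B,TNFRSF6B, which holds the secreted decoy DcR3 and the helicase gene RTEL1, was at 30.1 FPKM in OIS, 6.91 in H3.3cs1 late, 4.63 in H3.3cs1 early and 8.22 in growing, a 3.37-fold rise in OIS against growing. The files do not separate DcR3 from RTEL1.

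**Figure D2:**
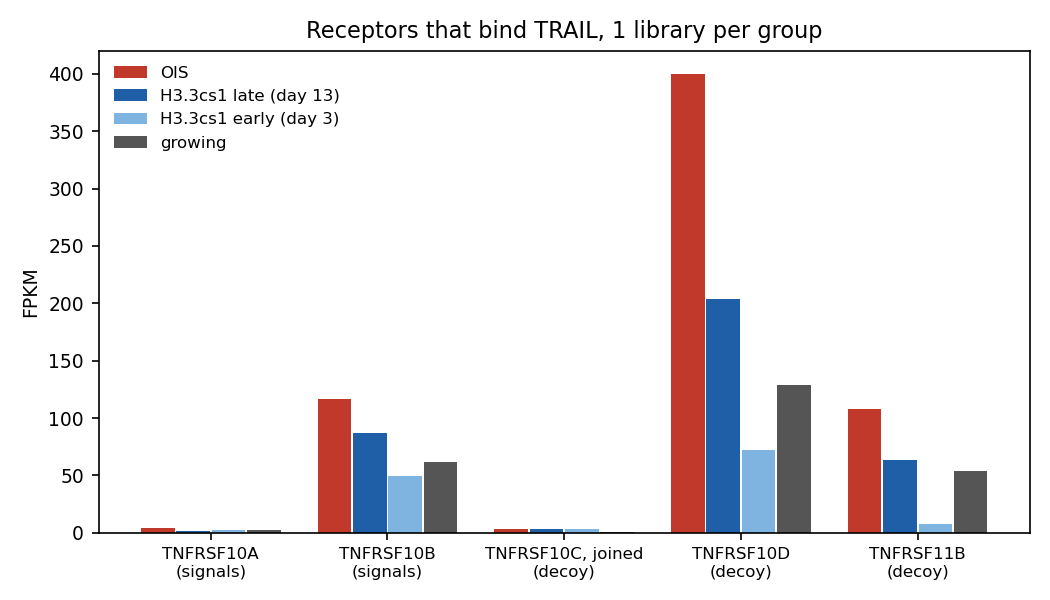
FPKM of the 5 receptors that bind TRAIL in each library; bars start at 0 and stand for 1 library each. TNFRSF10D exceeds TNFRSF10B in all 4 libraries, and TNFRSF11B is lowest in H3.3cs1 early, at 7.28 FPKM.

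Among the other receptors, the TNFRSF1B locus moved in opposite directions in OIS and H3.3cs1 late. The joined locus MIR4632,TNFRSF1B holds the second TNF receptor (TNFR2) and a microRNA gene. It was at 28.5 FPKM in OIS, 2.04 in H3.3cs1 late, 5.49 in H3.3cs1 early and 7.97 in growing. OIS was 3.29-fold above growing and H3.3cs1 late was 2.95-fold below it, with H3.3cs1 late also 2.13-fold below H3.3cs1 early. Measured directly, OIS was 9.69-fold above H3.3cs1 late. The window of TNFRSF1B at chr1:12166741-12167040 (plus strand), at the outer end of the gene, is shown because this was the member with opposite calls. It held no match to the 3 motifs.
TNFRSF1B: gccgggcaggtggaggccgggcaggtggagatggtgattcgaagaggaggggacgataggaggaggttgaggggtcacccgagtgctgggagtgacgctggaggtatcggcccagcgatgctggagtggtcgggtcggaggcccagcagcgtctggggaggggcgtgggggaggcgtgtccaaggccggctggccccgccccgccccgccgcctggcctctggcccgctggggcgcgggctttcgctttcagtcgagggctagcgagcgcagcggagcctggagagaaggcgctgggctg

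TNFRSF19 (TROY), a receptor known from the developing nervous system and skin, stayed within 2-fold of growing in OIS and fell in both H3.3cs1 libraries. It was at 19.3 FPKM in OIS, 3.47 in H3.3cs1 late, 5.76 in H3.3cs1 early and 15.1 in growing. The falls against growing were 3.60-fold in H3.3cs1 late and 2.38-fold in H3.3cs1 early, while OIS was 1.26-fold above growing. OIS stood 4.54-fold above H3.3cs1 late.

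TNFRSF12A (Fn14), the TWEAK receptor, was the most abundant receptor in the 2 H3.3cs1 libraries and in growing. It was at 285 FPKM in OIS, 315 in H3.3cs1 late, 143 in H3.3cs1 early and 371 in growing. It fell 2.58-fold in H3.3cs1 early against growing, and H3.3cs1 late was 2.19-fold above H3.3cs1 early (below 2-fold under other scalings, at 0.88 on the log2 scale after the named loci were rescaled to the same sum and 0.82 after quantile normalization). LTBR, the lymphotoxin beta receptor, was at 73.1, 94.95, 65.9 and 68.2 FPKM in OIS, H3.3cs1 late, H3.3cs1 early and growing, with no difference of 2-fold.

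TNFRSF14 (HVEM), a receptor of LIGHT, was at 1.10 FPKM in OIS, 1.15 in H3.3cs1 late, 2.78 in H3.3cs1 early and 0.548 in growing, a 2.44-fold rise in H3.3cs1 early at low levels. TNFRSF17 (BCMA) is on 2 lines that summed to 1.32 FPKM in OIS, 0.321 in H3.3cs1 late, 0.594 in H3.3cs1 early and 0.294 in growing, within 2-fold in OIS (a rise of 1.85 on the log2 scale with a pseudocount of 0.1). Its lines went opposite ways, 1 being at 1.28 FPKM in OIS and 0.196 in growing, the other at 0.0417 and 0.0981. The receptors CD27, CD40, TNFRSF18 (GITR) and TNFRSF4 (OX40) stayed at or below 0.381 FPKM in every library. TNFRSF8 (CD30), TNFRSF9 (4-1BB), TNFRSF11A (RANK) and TNFRSF13C (BAFF receptor) were at or below 0.102 FPKM, and TNFRSF13B (TACI) was listed at 0 throughout.

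Of the 21 members compared, 6 rose and 2 fell in OIS against growing, where 9.13% of the 12183 genes compared rose and 8.17% fell. The risers were TNFSF15, TNFSF18, TNFRSF10D and the joined loci of TNFRSF10C, TNFRSF1B and TNFRSF6B, and TNFSF4 and FAS fell. With the joined loci left out, 3 rose, and of these TNFSF15 and TNFSF18 had passed the minimum of 1 FPKM only through OIS. The median difference of the 21 was 0.84, against 0.032 over all genes compared. It was 0.097 with no minimum, over all 43 members, and 0.33 with a minimum of 5 FPKM, so its size rests on which members are let in. None of the 6 receptors with a death domain compared rose, where 9.13% of all genes did. The 2 falls were those of 1 ligand and 1 receptor with a death domain. The 8 fibroblast markers moved in the same comparison, with a sum of 4942 FPKM in OIS and 10756 in growing, and their part in these differences was not tested.

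In H3.3cs1 late against growing, 1 of the 21 rose (3.51% of all genes) and 2 fell (5.47% of all genes). These were the TNFRSF10C locus, and TNFRSF19 with the TNFRSF1B locus. The median of the members was 0.030, against -0.040 over all genes. In H3.3cs1 early against growing, 2 rose (1.40% of all genes) and 4 fell (3.96% of all genes). The TNFRSF10C locus and TNFRSF14 rose, and TNFRSF11B, TNFSF4, TNFRSF12A and TNFRSF19 fell, with a median of -0.050 against -0.025 over all genes (-0.32 with a minimum of 5 FPKM). The 3 comparisons share the growing library.

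From day 3 to day 13 of H3.3cs1, 4 members rose (5.47% of all genes) and the TNFRSF1B locus alone fell (3.40% of all genes). TNFRSF11B, TNFSF4, TNFRSF10D and TNFRSF12A were higher at day 13. TNFRSF11B, TNFSF4 and TNFRSF12A had fallen at day 3 against growing, and at day 13 each lay within 2-fold of growing. In this comparison and that of day 3 with growing, the H3.3cs1 early library is shared, so a value of that library alone moves both. Fibroblast markers moved in the same comparison, with 4 of the 8 higher and 1 lower at day 13 (median 0.99) and a sum of 11293 FPKM in H3.3cs1 late, 6159 in H3.3cs1 early and 10756 in growing. Loci without a name took 57.9% of the summed FPKM in H3.3cs1 early and between 47.4% and 49.0% in the other 3 libraries. The part of either in these differences was not tested.

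**Figure D3:**
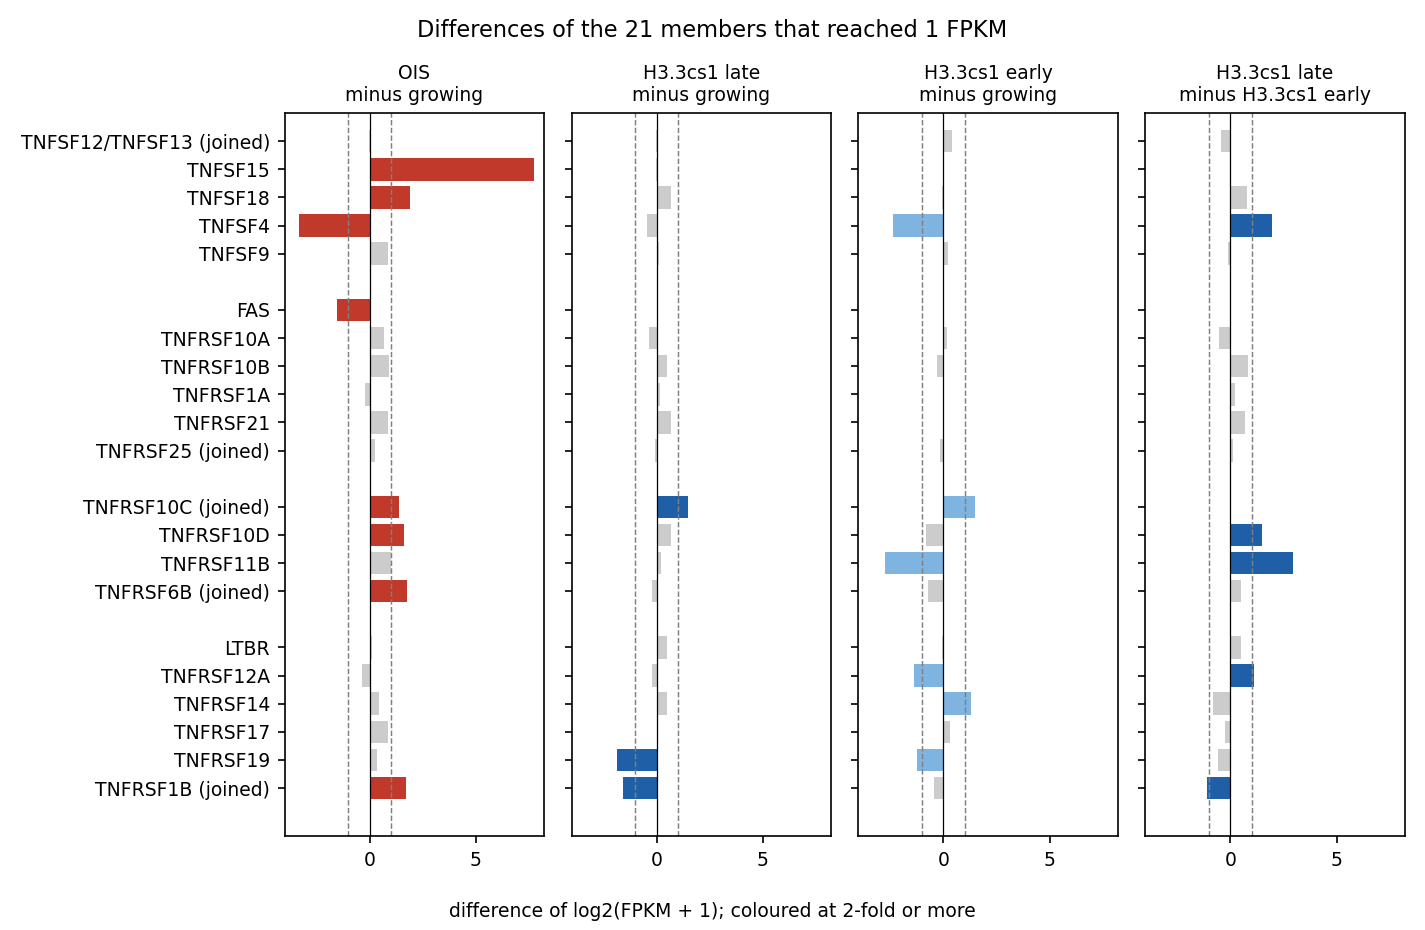
Differences of log2(FPKM + 1) for the 21 members in 4 comparisons, named first group minus second; bars past the dashed 2-fold lines are coloured. OIS has 6 members higher and 2 lower than growing, and H3.3cs1 late has 4 higher and 1 lower than H3.3cs1 early.

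OIS against H3.3cs1 late had 6 members higher (11.2% of all genes) and 2 lower (8.51% of all genes). TNFSF15, the TNFRSF1B locus, TNFRSF19, the TNFRSF6B locus, TNFSF18 and TNFRSF10A were higher in OIS, and TNFSF4 (7.50-fold) and FAS (2.91-fold) were lower. TNFSF15 and TNFSF18 had passed the minimum of 1 FPKM only through OIS, and the TNFRSF1B and TNFRSF6B loci are joined. The median of the members was 0.42, against 0.092 over all genes, and fell to 0.0086 with no minimum. TNFRSF10A was only just past the limit at 2.02-fold and lost its call under rescaling to the same sum, centring and quantile normalization, with a lowest value of 0.82 on the log2 scale. TNFRSF10D, at 1.96-fold, was just short of it.

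Read as ligands with their receptors, several pairs had a level above 1 FPKM on the receptor side only. TNF at or below 0.0451 FPKM faced TNFRSF1A at 83.2 to 107 FPKM, and TRAIL at or below 0.197 faced TNFRSF10B at 49.3 to 117. LTA and LTB, at or below 0.0863 FPKM, faced LTBR at 65.9 to 94.95, and FASLG at or below 0.402 faced FAS at 5.67 to 18.4. The values of TNF, LTA and LTB, each on several lines, can be failed estimates and are not read as absence. TNFSF4 with TNFRSF4 was the other way round, with the ligand at 1.47 to 24.0 FPKM and the receptor at or below 0.106. In OIS alone the same held for TNFSF18 at 3.40 FPKM with TNFRSF18, and for TNFSF9 at 1.64 with TNFRSF9, since both ligands were below 1 FPKM in the other 3 libraries. Both sides were above 1 FPKM in all 4 libraries for the joined TWEAK and APRIL locus with TNFRSF12A. In OIS this also held for TNFSF15 with the joined loci of TNFRSF25 and TNFRSF6B, and for the TWEAK and APRIL locus with TNFRSF17, the APRIL receptor. Transcript levels do not give the amount of protein on the cell surface.

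Some members that lie next to each other in the genome had very unequal levels. TNFSF15 and TNFSF8 are adjacent among protein-coding genes on chromosome 9 (RefSeq order), yet stood at 243 and 0.357 FPKM in OIS. The TRAIL receptor genes are adjacent on chromosome 8, and in OIS TNFRSF10B, the TNFRSF10C locus, TNFRSF10D and TNFRSF10A stood at 117, 3.11, 400.1 and 4.13 FPKM. TNFRSF1B and TNFRSF8 on chromosome 1 stood at 28.5 and 0.0971 FPKM in OIS. By contrast, TNFRSF1A and LTBR on chromosome 12, with 1 protein-coding gene between them, stood at 83.2 and 73.1 FPKM in OIS. CD27, adjacent to LTBR on its other side, stood at 0.290 FPKM in OIS. Over all windows of the members compared, 4 of 18 held the kappaB consensus (5.90% of 34943 RefSeq windows), 2 of 18 the AP-1 motif (7.72%) and 1 of 18 TATAAA (11.6%). The kappaB matches were in windows of FAS, TNFRSF14, TNFRSF25 and TNFSF13, the AP-1 matches in those of FAS and TNFSF15, and TATAAA in that of TNFSF9. Some genes have several windows, and only FAS has windows that overlap. No window was printed or searched for the receptor genes on chromosome 8, and none was found for TNFRSF12A or TNFRSF17.

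Of the 18 genes on a list of those known to be induced by TNF, 17 were compared, and 13 rose and 0 fell in OIS against growing (9.13% and 8.17% of all genes). The median was 2.23, against 0.032 over all genes, while TNF itself was listed at 0.0451 FPKM in OIS, a sum over several lines that is not read as absence. The 4 within 2-fold were TRAF1 (0.90), TNIP2 (0.72), TNFAIP8 (0.20) and CCL2 (-0.41), in log2 units. The joined locus ICAM1,ICAM4, which holds a leukocyte adhesion molecule, was at 218 FPKM in OIS, 4.10 in H3.3cs1 late, 6.56 in H3.3cs1 early and 3.70 in growing. CXCL10, a chemokine, was at 39.0 FPKM in OIS and between 0.0541 and 0.142 in the other 3. It had passed the minimum of 1 FPKM only through OIS. The joined locus FLOT1,IER3, which holds an early response gene, was at 1941, 251, 114 and 156 FPKM, and SOD2, the mitochondrial superoxide dismutase, at 307, 25.3, 45.0 and 29.7 FPKM, in OIS, H3.3cs1 late, H3.3cs1 early and growing.

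In H3.3cs1 late 1 of these 17 genes rose, VCAM1, and 2 fell, NFKBIA and TNFAIP3 (median -0.22, against -0.040 over all genes, of which 3.51% rose and 5.47% fell). NFKBIA, which encodes the NF-kappaB inhibitor IkappaBalpha, was at 52.3, 5.91, 14.5 and 13.7 FPKM in OIS, H3.3cs1 late, H3.3cs1 early and growing. VCAM1, another adhesion molecule, was at 6.89, 8.12, 0.760 and 1.39 FPKM. In H3.3cs1 early 0 rose and 1 fell, CCL2 (median -0.30, against -0.025 over all genes, of which 1.40% rose and 3.96% fell). CCL2, a chemokine for monocytes, was at 57.1, 130.1, 22.3 and 76.1 FPKM in OIS, H3.3cs1 late, H3.3cs1 early and growing. Some of these genes respond to other signals as well, and the list was chosen with earlier results known.

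**Figure D4:**
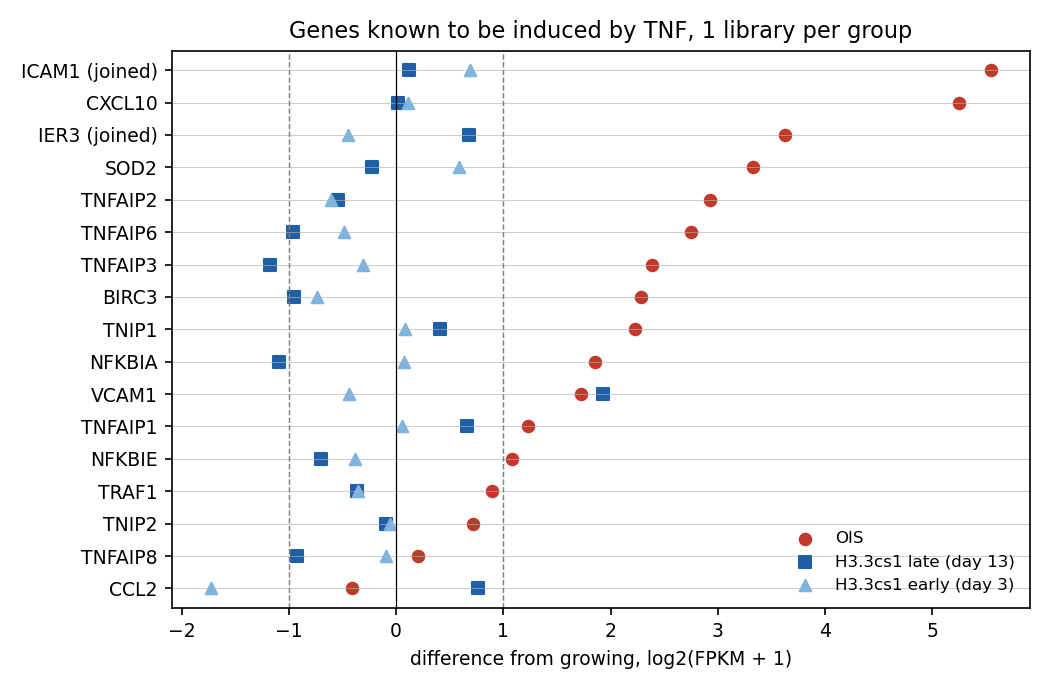
Difference from growing, on log2(FPKM + 1), of 17 genes known to be induced by TNF; each point is 1 library, and dashed lines mark 2-fold. In OIS 13 genes lie past the upper line, against 1 in H3.3cs1 late and 0 in H3.3cs1 early.

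Of the adaptors and ubiquitin enzymes of TNF receptor complexes, 18 of 19 were compared, and 4 rose and 0 fell in OIS (9.13% and 8.17% of all genes), with a median of 0.45 against 0.032 over all genes. BIRC3 (cIAP2) was at 10.5 FPKM in OIS, 0.220 in H3.3cs1 late, 0.412 in H3.3cs1 early and 1.36 in growing. TANK, a TRAF-binding protein, was at 33.2 FPKM in OIS and between 11.1 and 11.4 in the other 3. CRADD and TRAF3IP2 were the other risers, by 1.45 and 1.01 on the log2 scale. TRAF3IP2 was only just past the limit, and other scalings were not tried for this list. None of the 18 passed 2-fold against growing in H3.3cs1 late (3.51% of all genes rose, 5.47% fell) or H3.3cs1 early (1.40% and 3.96%). The medians were -0.063 in late and 0.022 in early.

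In the death branch, 8 of 10 genes were compared, and 2 rose in OIS, CFLAR and MLKL, and 0 fell (9.13% and 8.17% of all genes), with a median of 0.64 against 0.032 over all genes. CFLAR encodes cFLIP, an inhibitor of caspase 8, and was at 29.4, 18.5, 9.58 and 12.7 FPKM in OIS, H3.3cs1 late, H3.3cs1 early and growing. MLKL, the effector of necroptosis, was at 8.08, 0.690, 2.17 and 1.52 FPKM. CASP8 was at 4.964 FPKM in OIS and 4.999 in growing, and CASP10 and RIPK3 did not reach 1 FPKM. None of the 8 passed 2-fold against growing in H3.3cs1 late (3.51% of all genes rose, 5.47% fell) or H3.3cs1 early (1.40% and 3.96%).

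Of the 13 NF-kappaB kinases and subunits, 4 rose and 1 fell in OIS (9.13% and 8.17% of all genes). The median was 0.64, against 0.032 over all genes. None of the 13 passed 2-fold against growing in H3.3cs1 late (3.51% of all genes rose, 5.47% fell) or H3.3cs1 early (1.40% and 3.96%). RELB rose to 25.0 FPKM in OIS, against 5.24 in growing, NFKB2 to 43.9 against 18.4, REL to 2.02 against 0.428, and TAB3 by 1.08 on the log2 scale. REL had passed the minimum of 1 FPKM only through OIS. MAP3K14 (NIK), the kinase of the non-canonical pathway through LTBR and CD40, fell to 1.02 FPKM in OIS, against 6.42 in growing. RELB in H3.3cs1 late was at 2.12 FPKM, just short of a 2-fold difference from growing.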

How the data were processed

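The authors deposited FPKM values, 1 per locus and library. Cufflinks 2.1.1, TopHat2 2.0.3, Bowtie2 and the hg19 build are listed, per the submitters' processing notes, without role or order. How strand, multi-mapped reads and scaling between libraries were handled is not given in the sources used here. Libraries were poly(A)-selected, per the labels' protocols. The headers omit a name for the locus column, so each file's library was taken from its sample record and checked with HRAS.

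From the 26468 loci, 2310 without a name (47.4% to 57.9% of summed FPKM) were left out. Symbols on several lines were summed and joined loci kept, giving 22679 genes, of which 12183 with at least 1 FPKM in at least 1 library were compared (Python 3.11.15, pandas 2.3.3). The pseudocount was 1 and a call needed 2-fold. The size rule was run on simulated data, and no result of that run is given here. It gives no error rate for the calls in these libraries, least of all for those near 2-fold or at low FPKM. The design was 1 library per group, so no test was made. Members, lists and comparisons were chosen with earlier results of these data known. Named genes were all members at 1 FPKM or more and up to 4 genes per list and comparison, those with the largest differences. REL, CASP8, CASP10, RIPK3, ADAM17, the genes of the TNF-induced list within 2-fold in OIS and the single markers of other cell types were named after their values were seen. Alternatives covered pseudocount, filter, scaling, line handling, joined loci and zeros, for the members and not for the other gene lists. The value of 1 leukocyte marker is not reported here.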

Additional observations from a re-analysis of the deposited data

Results flagged for a closer look

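The MIR4632,TNFRSF1B locus moved in opposite directions in 2 groups set against the same growing library. The difference from growing was 1.72 in OIS and -1.56 in H3.3cs1 late, in log2(FPKM + 1). With 1 library per group this difference between the groups was not tested. Both values rest on the same growing library, at 7.97 FPKM, and the locus includes a microRNA gene.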

How the results depend on the processing

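No paired analysis was possible because each group has 1 library, and for the same reason no library could be left out. Of 90 counts of members under 9 alternatives, 80 stayed within 1.5 times the count reported and 10 did not. With joined loci left out, the members that rose were 3 in OIS, 0 in H3.3cs1 late and 1 in H3.3cs1 early against growing, those that fell were 1 in H3.3cs1 late against growing, and 0 fell from day 3 to day 13 of H3.3cs1. The alternative itself removes the TNFRSF10C, TNFRSF1B and TNFRSF6B loci. With a minimum of 5 FPKM, which removes low members, 0 rose in H3.3cs1 late and 0 in H3.3cs1 early against growing. With a pseudocount of 0.1, 2 rose in H3.3cs1 late against growing and 2 fell from day 3 to day 13, and after rescaling to the same sum 2 fell from day 3 to day 13. The cause of these last 3 was not tested. Of 45 medians over members, 30 stayed within 0.1 log2 units of the value reported and 15 did not. For OIS against growing the median ranged from 0.097 with no minimum to 0.92 with a pseudocount of 0.1. Rescaling to the same sum moved the median of all genes to -0.16 in OIS, -0.033 in H3.3cs1 late and 0.19 in H3.3cs1 early against growing. Of 890 differences of single members, 877 kept their side of the 2-fold limit, 13 crossed it and 0 changed sign after a call. Calls of the other gene lists were not checked in this way. In OIS against growing these include calls near the limit, TRAF3IP2 (1.01), REL (1.08), TAB3 (1.08) and NFKBIE (1.09), in log2 units. The rise of TNFSF15 in OIS ranged from 7.50 to 9.92 on the log2 scale. Values near or below 0.1 FPKM rest on few fragments, and a read count behind them was not analysed here.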

Other observations

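Superfamily receptors with names outside the rule were also present. EDA2R, a receptor of ectodysplasin A2 and a known p53 target, was at 9.30 FPKM in OIS, 14.98 in H3.3cs1 late, 7.20 in H3.3cs1 early and 8.85 in growing, and RELT, an orphan member, was at 6.92, 3.92, 2.50 and 3.73 FPKM in those libraries. EDAR was listed at 0 in all 4 libraries. Against growing, none of the 3 passed 2-fold in any library.

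Of the 7 genes for shedding and processing of TNF ligands, RHBDF1 alone passed 2-fold against growing. It rose in OIS, where 9.13% of all genes rose and 8.17% fell. Of all genes, 3.51% rose and 5.47% fell in H3.3cs1 late, and 1.40% rose and 3.96% fell in H3.3cs1 early. RHBDF1 (iRhom1), a partner of the sheddase ADAM17, was at 147 FPKM in OIS, 57.6 in H3.3cs1 late, 35.6 in H3.3cs1 early and 38.2 in growing. ADAM17, the TNF-converting enzyme, lay between 8.90 and 9.40 FPKM in all 4 libraries.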
